A study of Rattus norvegicus with 15 samples.

Results

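Atf3 and Creb1 encode a pair of transcription factors of the ATF/CREB family. Every probe whose annotation carried either symbol was followed through a time course of dibutyryl cAMP (dbcAMP) in cultured cells of rat sensory ganglia. These were 3 of the 5088 probes on the array: 1 probe of Atf3 (5H06) and 2 of Creb1 (7D04 and 52F09). They stand for 2 of the 4153 genes named on it. Cells dissociated from L4 and L5 dorsal root ganglia (DRG) of juvenile rats were grown in 1.5 mM dbcAMP, or without it, for 1, 3, 6, 12 or 18 h. RNA of treated cells (Cy5) and of untreated control cells (Cy3) was hybridised together on 2-colour arrays, 3 for each time. Strain and sex were not given in the labels used here. The protocol names a poly-L-lysine and a myelin surface, without saying which array had which. It is not stated that arrays of 1 time hold RNA of different cultures, and the spread behind each p-value is the one between arrays, which may be technical.

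Cyclic AMP activates protein kinase A, which phosphorylates CREB, the protein of Creb1. Phosphorylated CREB binds cAMP response elements (CREs) in promoters and recruits the coactivators CBP and p300, so its activity is set mainly by phosphorylation and not by how much of its mRNA a cell holds. ATF3 binds related elements, acts often as a repressor, and is known in the DRG as a gene that is nearly silent in intact neurons and strongly induced when their peripheral axon is cut. dbcAMP is a cAMP analogue that crosses the cell membrane.

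Each value below is the log2 of the ratio of treated over control RNA as deposited, so that 0 is no difference and a negative value is lower in treated cells. A probe is called when the adjusted p of limma, a linear model with a spread shared across probes, was under 0.05. The arrays had between 28 and 105 missing ratios and medians of 0.997 to 1.015. The log2 ratios spread more widely (SD 0.627 to 0.703) on every array of 18 h, on arrays 1 and 2 of 12 h and on array 3 of 6 h than on the remaining 9 arrays (SD 0.357 to 0.434). No intensities were used here, so how far a probe stood above background is unknown. Treated RNA was always in Cy5, so a dye bias of a probe is part of its ratio at each time, while a difference between times removes a constant one. In such mixed cultures, fewer cells of a type and less RNA per cell cannot be told apart.

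Atf3 mRNA was lower in dbcAMP-treated than in control cells at 12 and 18 h, and the ratio of treated over control RNA was lower at later times. A ratio does not show which of its RNAs changed with time. The Atf3 probe (accession in the annotation NM_012912, gene on chromosome 13 of GRCr8 from 105274103 to 105331653) gave log2 ratios of 0.10, 0.13 and 0.18 on the 3 arrays of 1 h and of -0.07, 0.08 and -0.33 at 3 h. It gave -0.29, -0.39 and -0.48 at 6 h. All arrays were therefore slightly above 0 at 1 h, they lay on both sides of 0 at 3 h, and all were below 0 from 6 h on, as were all 3 arrays for 17.5% of all probes at 6 h and 19.4% at 12 h. At 12 h the 3 arrays gave -1.09, -1.03 and -1.44, and at 18 h they gave -2.999, -2.94 and -2.76. No array of 18 h overlapped with any of 12 h, and no array of 12 h overlapped with any of 1 h. Of all probes, 7.03% had all 3 arrays of 18 h below all 3 of 12 h, and 8.40% had those of 12 h below those of 1 h.

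Against control, the mean of Atf3 was 0.14 ± 0.04 at 1 h, -0.11 ± 0.21 at 3 h and -0.39 ± 0.09 at 6 h (SD, n = 3 each), and none of these passed the test (limma adjusted p = 0.846, 0.984 and 0.072). After centring the arrays on plate medians the 6 h mean was -0.45 and was called (limma adjusted p = 0.0275). The mean of 12 h was -1.19 ± 0.22 (SD, n = 3), a level 2.27-fold lower in treated than in control cells (limma adjusted p = 2.93e-05). The 18 h arrays averaged -2.90 ± 0.13 (SD, n = 3), a 7.46-fold lower level (95% interval of the log2 ratio -3.13 to -2.66, limma adjusted p = 3.64e-09). Atf3 had the smallest p of the 5006 probes tested at 18 h and the second lowest mean, between Defa5, a defensin gene (-3.004), and a probe without a gene symbol (-2.72). At 12 h 8.58% of all probes were called and at 18 h 22.0%, against 2.33% at 1 h, 2.87% at 3 h and 4.19% at 6 h.

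**Figure D1:**
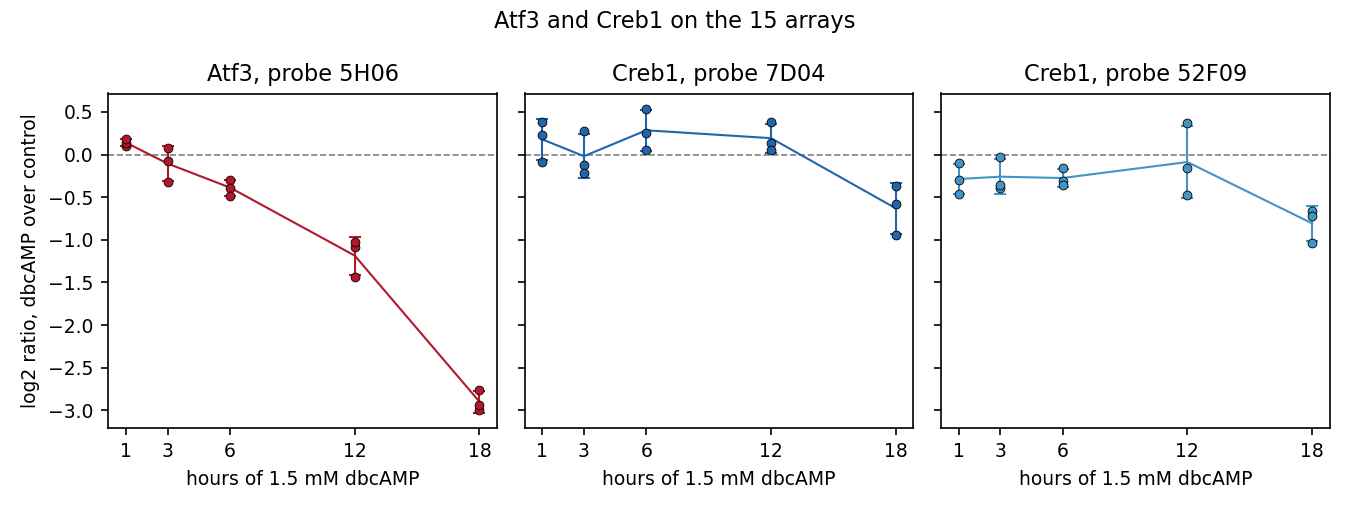
Log2 ratio of dbcAMP-treated over control RNA (y) against hours of dbcAMP (x) for the Atf3 probe and the 2 Creb1 probes; points are the 3 arrays of each time, the line joins their means and bars are 1 SD. The Atf3 ratio is at -2.90 at 18 h, while both Creb1 probes stay within 0.29 of 0 up to 12 h and lie at -0.63 and -0.81 at 18 h.

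The differences between times were tested in the same fit. Atf3 was 3.04 lower at 18 h than at 1 h on the log2 scale (-2.90 against 0.14, 95% interval of the difference -3.37 to -2.70, limma adjusted p = 1.75e-07), where 2.74% of all probes were called. It was lower at 12 h than at 1 h (-1.19 against 0.14, difference -1.32, adjusted p = 0.0023, limma), where 0.300% were called, and lower at 18 h than at 12 h (-2.90 against -1.19, difference -1.71, adjusted p = 0.000163), where 0.622% were called. The 18 h over 12 h call did not hold without arrays 1 (adjusted p = 0.0947) or without arrays 2 (adjusted p = 0.0928) of the times, nor after scaling all arrays to a common spread, which took the difference to -0.80 (adjusted p = 0.488, limma). The 12 h over 1 h call did not hold with any of the 3 array numbers left out (difference -1.41 to -1.17, adjusted p = 0.144 to 0.208), and the scaled values at 12 and 18 h were -1.09 and -1.90. With 1 number left out, and so fewer arrays in the fit, 0 of all probes were called for 12 h over 1 h. For 18 h over 12 h 0 to 14 were called. The earlier steps were smaller and passed no test: -0.25 for 3 h over 1 h (adjusted p = 1), -0.28 for 6 h over 3 h (adjusted p = 0.999) and -0.80 for 12 h over 6 h (adjusted p = 0.144). Few probes of any kind were called in these steps: 0.00% for 3 h over 1 h (0 of 5036 by limma, 64 at an unadjusted p under 0.05), 0.0398% for 6 h over 3 h and 0.0600% for 12 h over 6 h. In an F test for any difference among the 5 times Atf3 had the smallest p of 4964 probes (adjusted p = 7.78e-07), and 1.87% of probes were called.

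Atf3 was also among the more repeatable probes. Its SD within times, pooled over the 5 times, was 0.154, against a median of 0.301 over all probes, and 8.83% of the probes had a smaller one. The pooled SD was 0.244 for Creb1 7D04 and 0.249 for Creb1 52F09, nearer to that median.

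Creb1 mRNA was measured by 2 probes from different plates of the probe collection, 7D04 (accession X14788) and 52F09 (accession NM_031017). The gene lies on chromosome 9 of GRCr8 from 73397333 to 73466339. The promoter table made from RefSeq holds 2 starts for it in that build, and the stretch of 250 bases before to 50 bases after the first of them is shown because CREB is known to bind at its own promoter. The gene span begins within this stretch, upstream of that start and of the motifs marked, so these lie inside the gene as annotated. The capitals mark the core of the CRE, TGACG, searched on both strands:

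Creb1 promoter, chr9:73397259-73397558, plus strand: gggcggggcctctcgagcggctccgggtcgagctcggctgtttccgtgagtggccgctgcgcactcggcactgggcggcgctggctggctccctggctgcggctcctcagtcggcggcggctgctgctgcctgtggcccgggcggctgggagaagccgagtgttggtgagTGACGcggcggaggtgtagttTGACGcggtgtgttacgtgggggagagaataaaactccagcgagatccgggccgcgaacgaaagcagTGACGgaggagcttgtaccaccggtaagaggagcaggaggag

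This window held 3 CRE cores, all on the plus strand, with their first bases at -80, -59 and 9 relative to the start of the table. It held neither the full CRE, TGACGTCA (each of which contains a core on either strand), nor the AP-1 motif, TGANTCA. Of 33469 promoter windows of this length in the RefSeq table, 21.2% held a core, 1.11% held 3 or more, 1.83% held a full CRE and 7.33% an AP-1 motif. The window at the second Creb1 start, chr9:73414978-73415277, held none of them.

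Creb1 stayed near control for 12 h and was lower in treated cells at 18 h. Probe 7D04 gave -0.08, 0.39 and 0.23 at 1 h, -0.12, -0.21 and 0.27 at 3 h, 0.54, 0.26 and 0.06 at 6 h, and 0.14, 0.06 and 0.38 at 12 h. Its arrays at 18 h gave -0.36, -0.95 and -0.58, below every array of 1 h and of 12 h. Probe 52F09 gave -0.29, -0.46 and -0.10 at 1 h, -0.02, -0.40 and -0.36 at 3 h, -0.31, -0.36 and -0.15 at 6 h, and -0.47, 0.37 and -0.16 at 12 h. Its arrays at 18 h gave -0.66, -1.04 and -0.72 and were likewise below those of 1 h and of 12 h, although all but 1 of its earlier arrays were already below 0. All 3 arrays of 18 h were below 0 for both probes, as for 24.1% of all probes, and below all 3 of 1 h, as for 13.3%. They were below all 3 of 12 h as well, as for 7.03%.

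At 18 h Creb1 averaged -0.63 ± 0.30 by 7D04 (SD, n = 3, 95% interval -0.94 to -0.32, limma adjusted p = 0.00692) and -0.81 ± 0.20 by 52F09 (SD, n = 3, 95% interval -1.12 to -0.49, limma adjusted p = 0.00159). These are levels 1.55-fold and 1.75-fold lower in treated than in control cells, at places 468 and 317 from the lowest of 5006 probes. Averaged over both probes within each array, Creb1 was -0.72 ± 0.25 at 18 h (SD, n = 3). At 1, 3, 6 and 12 h the same average was -0.06, -0.14, 0.00 and 0.05, and neither probe passed the test at any of these times (adjusted p of 0.338 to 1 over the 8 tests). The call for 7D04 at 18 h was lost without array 2 (mean -0.47, adjusted p = 0.067) and after scaling the arrays to a common spread (-0.42, adjusted p = 0.124).

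Between times the Creb1 change did not pass the test. Creb1 7D04 was 0.81 lower at 18 h than at 1 h (-0.63 against 0.18, difference -0.81, 95% interval -1.25 to -0.37, limma adjusted p = 0.0525) and 52F09 gave -0.81 at 18 h and -0.29 at 1 h (difference -0.52, 95% interval -0.97 to -0.07, adjusted p = 0.226). Against 12 h the differences were -0.82 (adjusted p = 0.0845) and -0.72 (adjusted p = 0.132), and the F test among the 5 times gave adjusted p = 0.0965 and 0.301. Over the first 12 h neither probe moved past its interval: 12 h minus 1 h was 0.01 for 7D04 (95% interval -0.43 to 0.46) and 0.20 for 52F09 (95% interval -0.25 to 0.65).

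The plates of the probe collection differed in level, which touches the Creb1 probes. A probe's plate is the leading number of its ID. At 18 h the median probe of plate 52 was at -0.34, while those of plates 5 and 7, which carried Atf3 and Creb1 7D04, were at 0.16 and 0.19. Among 96 tested probes of each plate, Atf3 was the lowest of plate 5 and the next probe there was at -0.85. Creb1 7D04 was in place 2 from the lowest of plate 7, where 3 probes were called lower and 17 higher. Creb1 52F09 was in place 21 of plate 52, where 38 were called lower and 5 higher. After centring every array on the plate medians, Atf3 was at -3.09 at 18 h, 7D04 at -0.87 and 52F09 at -0.48, all still called (adjusted p = 4.26e-10, 0.00147 and 0.0386, limma), and the difference of 7D04 between 18 h and 1 h then passed the test (-0.99, adjusted p = 0.0296).

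**Figure D2:**
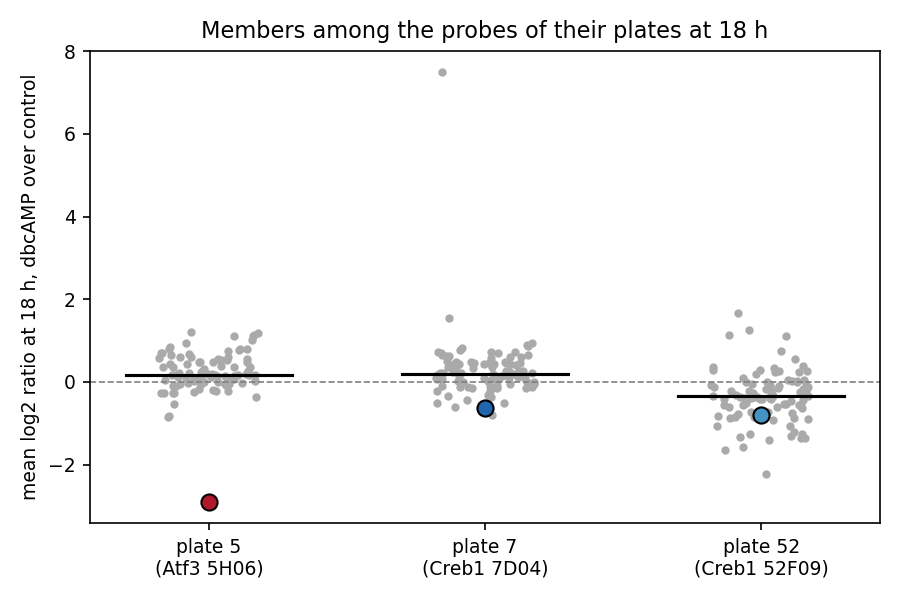
Mean log2 ratio at 18 h (y) of all probes of the 3 plates that carry the Atf3 and Creb1 probes (x); grey points are probes, black bars the plate medians and large coloured points Atf3 5H06, Creb1 7D04 and Creb1 52F09. Atf3 lies far below the rest of its plate, and the plate of Creb1 52F09 as a whole lies lower, with a median of -0.34.

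Both genes were read on the same arrays, so their ratios could be set against each other within each array. Atf3 minus Creb1 (mean of its probes) was 0.29, 0.17 and 0.12 on the arrays of 1 h and -0.00, 0.38 and -0.28 at 3 h. It was -0.41, -0.34 and -0.43 at 6 h. At 12 h it was -0.92, -1.24 and -1.55, and at 18 h it was -2.49, -1.95 and -2.11. Atf3 was thus above the mean of the Creb1 probes on every array of 1 h and below it on all from 6 h on. By single probes this did not hold throughout. Creb1 7D04 was above Atf3 on arrays 2 and 3 of 1 h (0.39 and 0.23 against 0.13 and 0.18). Creb1 52F09 was just below Atf3 on array 1 of 6 h (-0.31 against -0.29). After centring on plate medians the differences at 1 h ran from -0.01 to 0.22. Over the 6 arrays of 12 and 18 h the mean difference was -1.71, with all 6 below 0 (exact sign-flip permutation test, two-sided, p = 0.03125, the smallest that 6 arrays allow). Atf3 had already been called lower than control at both times, so this p adds no separate support. It also takes the arrays of both times together, and a dye bias of either probe stays in the difference. Within 1 time, 3 arrays allow no p under 0.25. The mean difference at 18 h was -2.18, or -1.42 after scaling the arrays to a common spread and -2.42 after centring on plate medians.

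Over the 15 arrays the log2 ratios of Atf3 and Creb1 correlated with r of 0.69 (7D04) and 0.59 (52F09), and the Creb1 probes with each other with r of 0.59. Without the arrays of 18 h, over 12 arrays, these values were -0.24, -0.29 and -0.23. The likeness between the 2 genes, and between the 2 probes of Creb1, therefore lay in the arrays of 18 h. These are descriptions, since arrays share their times and their spread.

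Among the other ATF/CREB factors on the array, no probe was called at any time. The family of 22 listed genes had 5 on the array with 8 probes, and at 18 h it had 0 called higher and 3 called lower, those of Atf3 and Creb1, where 10.6% of all probes were called higher and 11.3% lower. The median of the 8 probes was -0.14, against 0.01 over all probes. Atf4, the main effector of the integrated stress response and an inducer of Atf3 under stress, gave -0.09, -0.08 and -0.22 by probe 7D01 and 0.33, 0.16 and 0.26 by probe 52H08, so its 2 probes lay on opposite sides of 0 (adjusted p = 0.404 and 0.0863). Atf2, a partner of Jun, averaged -0.15 by 7E11 and -0.05 by 52G09 (adjusted p = 0.448 and 0.88). Jdp2, a close relative of Atf3 that also represses through CRE and AP-1 sites, gave 0.36, 0.72 and 0.36, all above 0 (mean 0.48, adjusted p = 0.0883). Centring on plate medians brought 3 further calls, Atf2 7E11 and Atf4 7D01 lower (-0.38 and -0.36) and Atf4 52H08 higher (0.58), so that the probes of Atf4 were then called in opposite directions. Of all probes, 499 were called higher and 504 lower with this centring.

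Fosl1, Cebpa and Nfil3 were the factors called at 18 h among 16 probes of other basic leucine zipper (bZIP) genes, the wider class to which Atf3 and Creb1 belong, a share of 18.8% beside the 22.0% of all probes. Fosl1, a Fos-related AP-1 subunit, was 0.99, 0.48 and 0.67, all above 0 (mean 0.71, adjusted p = 0.00763, and 0.0703 without array 1), and was called at 12 h too (0.63). Cebpa, a regulator of differentiation, was -1.68, -0.55 and -0.63, with array 1 far below the others (mean -0.96, adjusted p = 0.0134, and 0.14 without array 1). Nfil3, a repressor that binds CRE-like sites, averaged -0.57 (adjusted p = 0.0106, and 0.0896 without array 2). Of these 3, none was called after scaling the arrays to a common spread or centring them on plate medians. Junb, an AP-1 subunit, followed another course: it was called higher at 3 h (0.60) and 6 h (0.72) and was at 0.05 at 18 h, where it was called higher after centring on plate medians (0.38, adjusted p = 0.0236). Ddit3 (CHOP), a stress-induced factor, was called higher at 12 h (0.59) and was at 0.17 at 18 h. The calls of Junb at 3 h and of Ddit3 and Fosl1 at 12 h were lost in 3, 3 and 2 of 3 repeats that left out 1 array.

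**Figure D3:**
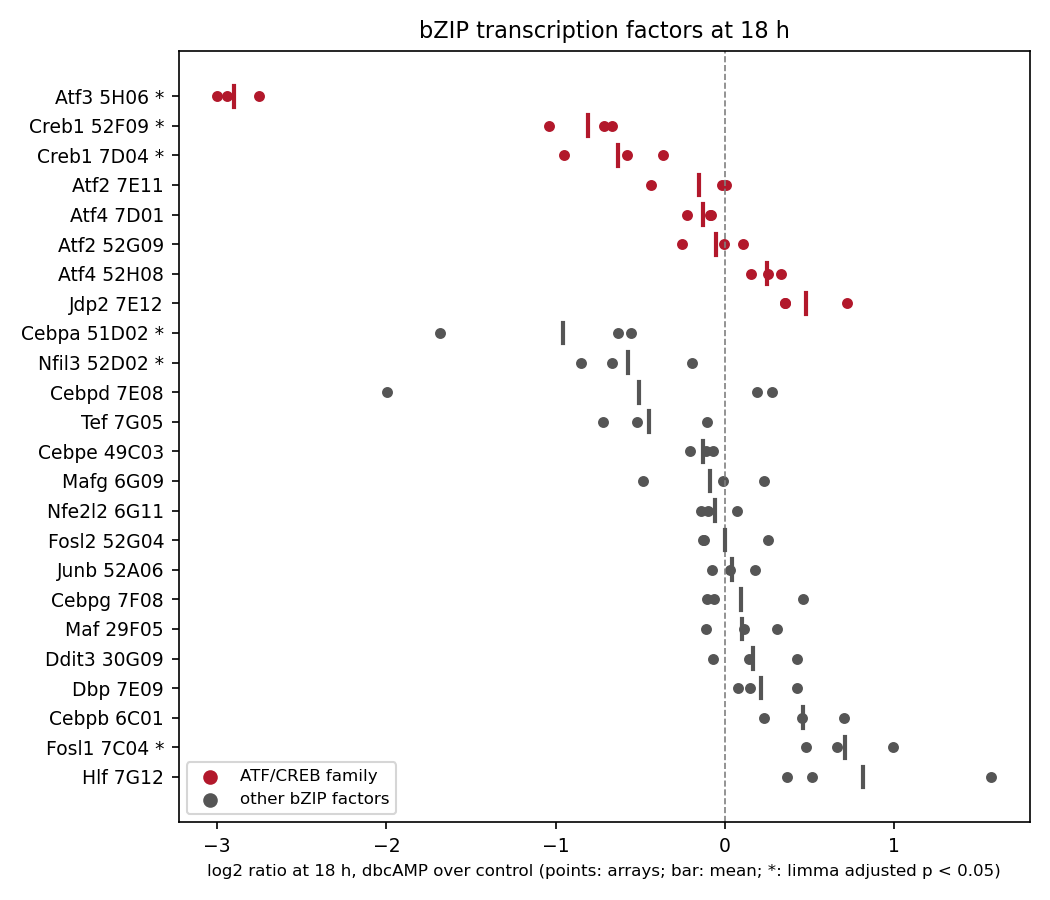
Log2 ratio at 18 h of dbcAMP-treated over control RNA (x) for 24 probes of ATF/CREB factors (red) and other bZIP factors (grey); points are the 3 arrays, bars their means, and an asterisk marks probes called by limma. Atf3 stands alone near -2.90, followed by Cebpa at -0.96 and the 2 Creb1 probes.

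Genes known as direct CREB targets were called higher more often than lower at 3, 6 and 12 h, most often at 6 h. At 18 h the share called was near that of all probes. At 1 h 11.5% of their probes were called, beside 2.33% of all probes, and the calls of Dusp1 and Ppargc1a were lost with any 1 array left out. Of 26 probes for 23 of the 31 listed genes, 2 were called higher and 1 lower at 1 h, 4 and 1 at 3 h, 7 and 1 at 6 h, 6 and 0 at 12 h, and 4 and 2 at 18 h. The share called was 30.8% at 6 h and 23.1% at 18 h, beside the 4.19% and 22.0% of all probes. Of all probes, 0.732% were called higher and 1.60% lower at 1 h, 0.931% and 1.94% at 3 h, 1.84% and 2.35% at 6 h, and 3.81% and 4.77% at 12 h. The median of the target probes at 18 h was 0.14. With centring on plate medians 10 of them were called higher and 1 lower at 18 h, where 499 of all probes were called higher and 504 lower.

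Promoter windows were in the RefSeq table for 22 of these 23 genes, with 32 starts in all. A full CRE was in 7 of the 32 and a core in 20. The windows of Pde4b and Ptgs2, called higher at 18 h, held neither, and that of Nfil3, called lower, held a core only. Full CREs were in Areg, Scg2, Sst and Th, which were not called at 18 h. They were also in Dusp1 and Vgf, called higher then, and in Ppargc1a, called lower. The CREs of the 3 such genes that were called at 18 h, each shown with 11 bases on either side and the motif in capitals, were:

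Dusp1, chr10:17184718-17184747, plus strand: ggcagggcgggTGACGTCAccacccggtca

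Vgf, chr12:25277092-25277121, minus strand: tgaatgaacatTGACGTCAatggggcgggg

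Ppargc1a, chr14:63634116-63634145, plus strand: ctgcctcggagTGACGTCAggagtttgagc

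Dusp1, a phosphatase that switches off MAP kinases, was higher at every time. Its means were 0.57, 0.76, 0.74, 0.79 and 0.61 at 1, 3, 6, 12 and 18 h (adjusted p = 0.0234, 0.00255, 0.00315, 0.00145 and 0.00258, limma). The arrays of 18 h gave 0.46, 0.68 and 0.71. The call at 1 h was lost with any 1 of its arrays left out, and the call at 18 h after scaling (0.40, adjusted p = 0.058).

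Vgf, a neuropeptide precursor, was called from 6 h on by probe 1D09. Its means were 1.03 at 6 h, 0.53 at 12 h and 1.03 at 18 h (adjusted p = 0.000206 at 18 h). The call at 12 h was lost in 2 of 3 repeats without 1 array (highest adjusted p = 0.24) and after scaling (0.119). Probe 1D09 gave 1.18, 0.74 and 1.15 on the arrays of 18 h. Its probe 52D09 was above 0 in all 3 arrays as well, at 0.24, 0.43 and 0.18, and was not called (adjusted p = 0.0686). The targets called lower at 18 h were Nfil3, given above, and Ppargc1a, the coactivator PGC-1α, which gave -1.48, -0.72 and -0.94 at 18 h (adjusted p = 0.018, and 0.125 without array 1). Ppargc1a was called lower at 1, 3 and 6 h too (-1.22, -1.34 and -1.20), calls lost in 3, 3 and 2 of 3 repeats that left out 1 array, and at 6 h after centring on plate medians (adjusted p = 0.11).

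Rgs2, which limits G protein signalling, and the kinase gene Sik1, which restrains CREB coactivators, were called higher early and not at 18 h. Rgs2 averaged 0.73, 0.81 and 0.83 at 1, 3 and 6 h (adjusted p = 0.00164, 0.000402 and 0.000305, limma), then 0.40 at 12 h (adjusted p = 0.0238, lost in 2 of 3 repeats without 1 array) and 0.12 at 18 h. It was lower at 18 h than at 1 h (0.12 against 0.73, difference -0.61, adjusted p = 0.0324), a call lost with any 1 array number left out. Sik1 averaged 0.94 at 3 h and 0.88 at 6 h (adjusted p = 0.0324 and 0.0394, lost in 3 and 2 of 3 repeats without 1 array) and 0.33 at 18 h, which was not called. Beside Dusp1 and Vgf, the targets called higher at 18 h were Pde4b, a cAMP phosphodiesterase (1.29, 1.12 and 1.19 at 18 h, adjusted p = 0.000568), and Ptgs2, cyclooxygenase 2, by probe 16H10 (1.56, 1.45 and 2.51, adjusted p = 9.39e-05). Probe 52D03 of Ptgs2 gave 0.44, 0.61 and 0.59 and was not called (adjusted p = 0.158).

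**Figure D4:**
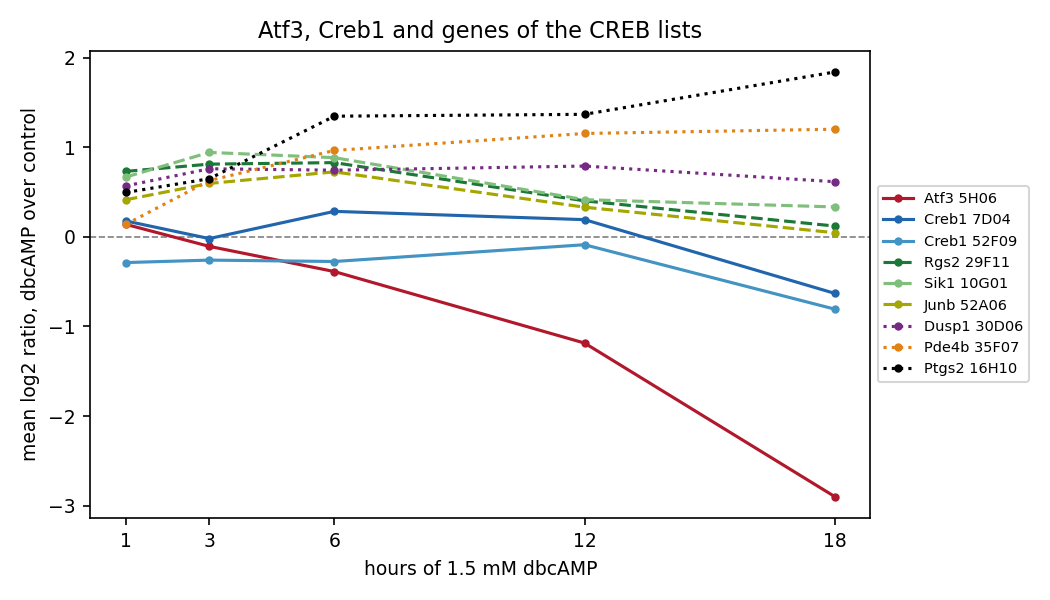
Mean log2 ratio of dbcAMP-treated over control RNA (y) against hours of dbcAMP (x) for the Atf3 and Creb1 probes (solid lines), for Rgs2, Sik1 and Junb, which were called higher early and not at 18 h (dashed), and for Dusp1, Pde4b and Ptgs2, which were called higher at 18 h (dotted). At 18 h Rgs2 is at 0.12 and Ptgs2 at 1.84, while Atf3 is at -2.90.

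Among the kinases, phosphatases and coactivators that act on CREB, Camk4 and Prkacb were called at 18 h. Of 23 probes for 21 genes, 0 were called higher and 2 lower (8.70%, beside the 22.0% of all probes), with a median of -0.06. These were Camk4, a calcium-activated kinase that phosphorylates CREB (-1.34, -0.26 and -0.67, adjusted p = 0.00675, and 0.0748 without array 1), and Prkacb, a catalytic subunit of protein kinase A (-0.46, -0.30 and -1.32, adjusted p = 0.0198, and 0.191 without array 3). In both, 1 array was well below the other 2. Prkaca, the other catalytic subunit gene, averaged 0.44 at 12 h (adjusted p = 0.0439, lost in all 3 repeats without 1 array) and 0.02 at 18 h.

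The integrated stress response, a pathway in which Atf4 and then Atf3 and Ddit3 are induced, gave no common direction at 18 h. Of 20 probes for 18 genes, 3 were called higher and 2 lower, a share of 25.0% beside the 22.0% of all probes. Asns, asparagine synthetase (mean 0.73, adjusted p = 0.00267, and 0.0778 after scaling), and Vldlr, a lipoprotein receptor (0.58, adjusted p = 0.0158, and 0.16 without array 1), were higher. Gadd45a, a growth arrest gene, was -1.26, -1.05 and -1.22 at 18 h (adjusted p = 0.000188) and was also lower at 18 h than at 1 h (-1.18 against -0.03, difference -1.15, adjusted p = 0.0155, lost with any 1 array number left out). The 2 probes of Vegfa, an angiogenic growth factor, were called in opposite directions (0.81 for 25C10 and -1.37 for 52C12, the second not called after scaling, adjusted p = 0.0614). Probe 52C12 was called lower at 1, 3, 6 and 12 h too (-1.24, -2.89, -1.42 and -1.07). Its calls at 1 and 12 h were lost in 2 and 1 of 3 repeats that left out 1 array.

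Genes known to be induced with Atf3 in DRG neurons after axotomy were called lower more often than higher. Of 34 probes for 29 genes, 12 were called lower and 6 higher at 18 h, a share of 52.9% beside the 22.0% of all probes, with a median of -0.28. In the difference between 18 h and 1 h, 6 were called lower and 3 higher (26.5%, beside 2.74%), of which 8 were lost with any 1 array number left out and 1, Ankrd1, with none. At 18 h the counts were 8 lower and 3 higher after scaling the arrays to a common spread, where 251 of all probes were lower and 171 higher. They were 10 lower and 7 higher, with a median of -0.08, after centring on plate medians, where 504 of all probes were lower and 499 higher. Fitted to the 18 h arrays alone, 2 were called lower and 2 higher, where 124 of all probes were lower and 59 higher. Beside these probes 1.56% of all were lower and 1.18% higher between 18 h and 1 h. Ankrd1, a nuclear ankyrin repeat protein, was -2.30, -1.84 and -2.24 at 18 h (adjusted p = 1.87e-06), and it was lower than at 1 h (-2.13 against 0.11, difference -2.24, adjusted p = 0.000107). Sprr1a, a cytoplasmic protein of growing axons, was -1.69, -0.77 and -2.26 (adjusted p = 0.00209), and its probe lies on plate 52. Csrp3, a LIM domain protein, was -0.82, -0.18 and -2.39, widely spread (adjusted p = 0.0108, and 0.0637 without array 3).

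The other probes of this list that were called lower, apart from Gadd45a given above, had smaller mean changes at 18 h. Gap43 was -0.59, -0.68 and -0.50 at 18 h (adjusted p = 0.000517) and Stmn4, a microtubule regulator of the stathmin family, -0.83, -0.81 and -0.48 (adjusted p = 0.000414, and 0.297 after centring on plate medians). Tubb2b, a β-tubulin, was -0.57, -0.82 and -0.69 (adjusted p = 0.00171), and Gal, the neuropeptide galanin, -0.78, -0.85 and -0.64 (adjusted p = 0.00156). All arrays of these 4 genes were below 0. Stmn2, Basp1 (both probes) and Hspb1 9H02 were called lower with means of -0.51, -0.31, -0.50 and -0.46, each lost on leaving out 1 array (highest adjusted p = 0.0546, 0.0933, 0.0507 and 0.125), and Stmn2 was at 0.02 after centring on plate medians.

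Of the axotomy genes 6 were called higher. Npy, neuropeptide Y, was 1.14, 1.60 and 0.92 at 18 h (adjusted p = 0.000208), and it was higher than at 1 h (1.22 against 0.03, difference 1.20, adjusted p = 0.0161). Arg1, arginase 1, was 1.51, 0.58 and 1.28 (adjusted p = 0.000414). Vgf is given above. Il6, interleukin 6, was -0.50, 3.25 and 2.83, with array 1 opposite to the others (adjusted p = 0.0126, and 0.125 without array 2). Ecel1, an endopeptidase gene, averaged 0.80 (adjusted p = 0.0689 without array 1), and Fgf2, a growth factor, 0.73 (adjusted p = 0.151 without array 2). The differences from 1 h of Npy and Arg1 were lost with any 1 array number left out.

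Markers of the cells in the culture were called at shares of 0.00% to 33.3% at 18 h, beside the 22.0% of all probes. The sensory neuron markers had 2 called lower (Uchl1, mean -0.84, and Ntrk2, -0.63) and 1 higher (Nefl 27F06, 1.03, and adjusted p = 0.268 without array 3) of 19 probes (15.8%), with a median of -0.08 and means from -0.84 to 1.03. Schwann cell and satellite glia markers had 3 called lower and 2 higher of 15 (33.3%, median -0.17), and fibroblast markers 2 and 1 of 9 (33.3%, median -0.14). Macrophage markers had 1 lower and 1 higher of 7 (28.6%), and endothelium markers had none of 6. The medians of the 5 lists ran from -0.17 (glia) to 0.11 (endothelium). Single markers spread more widely, those of macrophages from -1.085 to 0.739. The ratios give no levels, so they do not show which of these cells the cultures held, and the part of cell composition in the Atf3 and Creb1 results was not tested.

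The probes whose ratios followed Atf3 most closely over the 15 arrays were Serinc5, S100a9, Gap43, S100a8, S100a4, Ankrd1, Ccn1, St6gal1, Stmn4 and Cryab (Pearson r of 0.97 to 0.90, among 4271 probes with a ratio on all arrays). Serinc5, a membrane protein, had the highest r (0.97), and its means were 0.20, 0.03, -0.23, -0.42 and -1.40 at 1, 3, 6, 12 and 18 h, so its mean was first below 0 at 6 h, and that of Atf3 at 3 h. S100a9 and S100a8, calcium-binding proteins that are abundant in neutrophils, were at -1.95 and -2.08 at 18 h, against 0.00 and -0.03 at 1 h, a difference that their choice by likeness favours and that is given with no test. Gap43, Ankrd1 and Stmn4 are also in the axotomy list. Cryab, a small heat shock protein, reached -0.94 at 12 h and -1.63 at 18 h, whereas Ccn1, a matrix-associated growth regulator, was at -0.17 at 12 h and -1.14 at 18 h.

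The order of likeness rested largely on 18 h. Of the 10 probes, 8 were again among the 10 most like Atf3 after scaling the arrays, 7 after centring on plate medians, 5 with Spearman's rho, and 1 without the arrays of 18 h. Without those arrays their r was 0.63 to 0.88, with St6gal1, a sialyltransferase, the highest. The opposite pattern was closest in Cd24, a surface glycoprotein (r = -0.96, mean 1.26 at 18 h), and in Pdpn, podoplanin (r = -0.93, 0.88). It was followed by Col18a1, a basement membrane collagen (r = -0.93, 1.34), the glycolytic enzyme gene Tpi1 (r = -0.92, 0.79) and Tst, a mitochondrial sulfurtransferase (r = -0.91, 0.53).

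**Figure D5:**
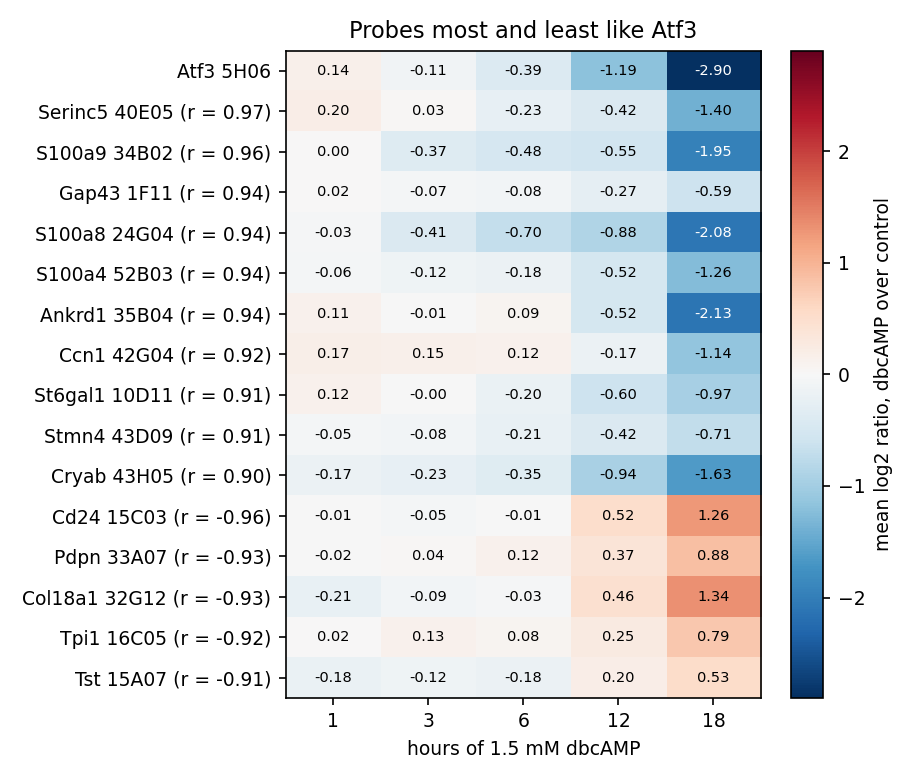
Mean log2 ratio of dbcAMP-treated over control RNA (colour and number) at each time (x, hours of dbcAMP) for Atf3 and for the 10 probes most like it and the 5 least like it over the 15 arrays (y, with Pearson r). The like probes are lowest at 18 h, from -0.59 for Gap43 to -2.13 for Ankrd1, and the unlike ones are highest there, from 0.53 to 1.34.

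The probes most like Creb1 differed between its probes. For 7D04 they were Ccn1 (r = 0.85), Mlnr (0.84), Cst3 (0.81), Mxd3 (0.81) and Carhsp1 (0.80). For 52F09 they were Tas2r126 (0.86), Ctsq (0.85), Ccr2 (0.84), Olr59 (0.82) and Inpp5d (0.82). No gene was in both lists, and without the arrays of 18 h 0 of the 5 stayed in either. In the order of the 18 h means 7D04 stood between Nppa (-0.63) and a probe without a symbol (-0.63), and 52F09 between Tnnt3 (-0.81) and Pde4a (-0.80). These neighbours were chosen by their nearness.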

How the data were processed

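Each array compared Cy5-labelled RNA of dbcAMP-treated cells with Cy3-labelled RNA of control cells (1.5 mM, 5 times, 3 arrays each). What the authors deposited is, for each probe and array, a linear ratio with treated RNA on top. How they subtracted background or normalized is not given in the sources used here. Ratios carry no depth. The number of arrays, their spread and the unknown height of a probe above background limit the precision. The treatment protocol lists 0 h where the labels give 1 h, and the labels were followed. Log2 of each deposited ratio was analysed without further normalization with limma 3.58.1 in R 4.3.3 (1 mean per time, 15 arrays, spread shared by all). Probes with ratios on 2 or more of 3 arrays were tested, with Benjamini-Hochberg adjustment over all probes tested, and two-sided. Of 5088 probes, 4423 had 1 gene symbol (4153 genes), 2 had several and 663 had none. Of those with 1 symbol, 4375 matched RefSeq on GRCr8 and 0 symbols changed. All per-sample columns were used (0 left out). Simulated data were used to test the fit. The probes named were those of Atf3 and Creb1, list genes with those called at 18 h or between 18 h and 1 h first, the probes most and least like a member by Pearson r, and the neighbours in the order at 18 h. The members, the 6 gene lists and the 5 marker lists were chosen with earlier results of these data known, so list counts are descriptions. Alternatives were: centring arrays on medians or plate medians, scaling to a common spread, only the arrays compared, a replicate block, the methods' t-test, other minima of ratios, a robust prior, array weights, arithmetic means, and leaving out each array; likeness was also taken by Spearman's rho, and without 18 h, which was chosen after seeing the data.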

Additional observations from a re-analysis of the deposited data

Results flagged for a closer look

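For Atf3, 3 differences between times passed the test of the difference itself: 18 h over 1 h (log2 difference -3.04), 12 h over 1 h (-1.32) and 18 h over 12 h (-1.71). Arrays of the later time were lower than those of the earlier one in all 9 pairs of each, as for 13.3%, 8.40% and 7.03% of all probes in that order. The 12 h over 1 h call was lost with any array number left out. The 18 h over 12 h call was lost without arrays 1 or without arrays 2. With 1 number left out, 0 of all probes were called for 12 h over 1 h and 0 to 14 for 18 h over 12 h.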

How the results depend on the processing

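Under the 13 alternatives with a test the Atf3 log2 ratio at 18 h ranged from -3.09 to -1.90 and kept its direction. With the methods' t-test it was -2.90 with adjusted p = 0.152, and -1.19 with adjusted p = 0.435 at 12 h. That test called 1 probe at 18 h, with 907 at an unadjusted p under 0.05, and 38 between 18 h and 1 h. With only the arrays compared, Atf3 at 12 h was -1.19 (adjusted p = 0.0842), and 183 probes were called at 18 h and 48 between 18 h and 1 h. Calls at 18 h were then 32.2% higher ones, against 48.4% in the fit reported. Scaling to a common spread gave 422 and 11 calls and array weights 664 at 18 h, where the fit reported gave 1101 and 137. For Creb1 at 18 h, 7D04 was not called with scaling (-0.42, adjusted p = 0.124), own arrays (-0.63, 0.12), the t-test (-0.63, 0.308) or array weights (-0.63, 0.0622), nor 52F09 with own arrays (-0.81, 0.0644) or the t-test (-0.81, 0.224). Leaving out 1 array gave 7D04 -0.76 to -0.47. The difference of 7D04 between 18 h and 1 h passed the test with plate medians centred (-0.99, adjusted p = 0.0296). Atf3 at 18 h over 12 h was not called with scaling (-0.80, adjusted p = 0.488), own arrays (-1.71, 0.187) or the t-test (-1.71, 0.316), and was -1.91 to -1.61 with 1 number left out. Calls between 18 h and 1 h were then 12 to 20, with fewer arrays in the fit. At 1, 3, 6 and 12 h leaving out 1 array gave 24 to 44, 53 to 79, 103 to 149 and 142 to 543 calls, against 118, 145, 212 and 430. Atf3 minus Creb1 at 18 h was -1.42 with scaling. Among values called in either fit, Stmn2 alone turned its direction (0.023 with plate medians centred); 16 recomputed values of Atf3 and Creb1 that were called in neither changed sign. Causes were not tested. Among values that answer a comparison, 115 recomputed ones kept direction and threshold, 15 lost the call, 1 gained it and 11 moved. Among the others 1821 kept their side of the threshold or moved by less than the SD, 512 lost the call and 161 moved. In these, 1 gained the call, Atf3 at 6 h with plate medians centred (-0.45, limma adjusted p = 0.0275).

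Replicate numbers did not pair the arrays: deviations of same-numbered arrays correlated with a mean r of -0.00 (-0.05 to 0.07), over 0.1 in 0 of 30 pairs. With the replicate block 1088 probes were called at 18 h and 102 between 18 h and 1 h, Atf3 had adjusted p = 1.04e-07 and the Creb1 probes 0.0119 and 0.00407 at 18 h, and no call of Atf3 or Creb1 at 18 h changed. With 3 arrays a time and no intensities, small differences and dim probes are the limit.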
